A study of Mus musculus with 5 samples.

Results

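Irs2 and 8 further genes of the route that leads from insulin-type receptors through PI3 kinase to the FOXO transcription factors were followed in natural killer (NK) cells of mouse spleen. The genes were taken by symbol from a table of raw counts, and all 9 were found among its 56691 Ensembl gene IDs and passed the filter on low counts, as did 30580 genes in all. They comprise an adaptor (Irs2), receptors (Insr and Igf1r), the main regulatory subunit of PI3 kinase (Pik3r1), brakes on the pathway (Pik3ip1, Inpp4b and Inpp5d) and the FOXO factors Foxo1 and Foxo3. The list was drawn up with the difference between the groups in these libraries already known, Irs2 having been among the genes that differed most. Levels and differences of the 9 genes are therefore given as a description. Whether a gene was called in the fit over all genes is stated, and nothing is read from it.

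The study held 5 RNA libraries from NK cells. In 3 of them, labelled Fli1 KO, the cells had undergone CRISPR knockout of Fli1, the gene of an ETS family transcription factor, and in 2 the cells carried the control labelled NTC. Both groups were thus CRISPR-treated splenic mouse NK cells, and the labels state no strain, age, sex, culture condition, guide or time after editing. The labels number the libraries but do not say that they came from separate animals or cultures, so the spread between them may be technical. Libraries were made from total RNA with an enrichment kit.

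When insulin or insulin-like growth factor binds its receptor, IRS adaptors are phosphorylated and recruit PI3 kinase through its regulatory subunit. The lipid that PI3 kinase makes activates AKT, lipid phosphatases remove it, and active AKT keeps FOXO factors out of the nucleus. FOXO factors in turn raise the RNA of Irs2 and of the insulin receptor in mouse liver, which closes a feedback loop, and in lymphocytes they hold genes of quiescence and homing active. IRS2 is also phosphorylated downstream of several cytokine receptors. The phosphatase SHIP1, made from Inpp5d, and Foxo1 both shape NK cell maturation in mice.

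The libraries held 5487027, 5643791 and 5164623 counts in Fli1 KO 1 to 3, and 5445718 and 4718390 in NTC 1 and NTC 2. A single predicted gene, Gm10800, took 13.8% to 16.4% of the counts in the Fli1 KO libraries and 10.3% and 18.98% in NTC 1 and NTC 2. Fli1 RNA (ENSMUSG00000016087) stood at 390, 320 and 361 CPM in the libraries labelled Fli1 KO, against 322 and 279 CPM in those labelled NTC, and the groups overlapped. CPM here is the count relative to the library's total over the tested genes, after TMM scaling. A count over the whole gene cannot check a CRISPR label, so every direction below rests on the labels. All 14 NK markers lay over 3 times the background density of counts, which was measured on olfactory and vomeronasal receptor genes that NK cells do not use. Their summed level was 9797 to 14208 CPM in Fli1 KO and 7047 to 10299 CPM in NTC. Of the markers of other cells, 2 of 10 T cell, 0 of 10 B cell, 1 of 12 myeloid, 0 of 10 erythroid and 1 of 10 stromal genes did so, namely Lat, Trac, Cd68 and Pecam1. Their summed levels overlapped between the groups but for the erythroid list, at 24.8 to 31.0 CPM in Fli1 KO and 32.8 to 33.0 CPM in NTC; its part in the results was not tested. No marker was at 0 in every library. Gzma, the highest of the 14 NK markers, averaged 4052 CPM in Fli1 KO and 2736 CPM in NTC. The NK markers differed in direction. The log2 fold change was −0.34 for Ncr1, −0.27 for Klrk1 and −0.48 for Tbx21, against 0.57 for Gzma, 0.61 for Gzmb and 0.87 for Prf1. None of the 14 was called in either direction.

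The promoter of Irs2 is shown because Irs2 is the gene whose RNA differed most among the 9. That of Inpp4b is shown because it was the other gene called different. That of Inpp5d is shown because it alone of the 8 genes with a window held GGAAGT, the letters taken here as the ETS core. Each window runs from 250 bases before to 50 after the start in RefSeq (GRCm38.p6), read 5′ to 3′ on the gene's strand. Capitals mark matches, on either strand, to the FOXO core TGTTTAC, the insulin response core TGTTTTG, the E-box CACGTG, the CREB site TGACGTCA, its half-site TGACG, and the ETS core GGAAGT with its longer form CCGGAAGT.
Irs2, chr8:11008880-11009179, minus strand: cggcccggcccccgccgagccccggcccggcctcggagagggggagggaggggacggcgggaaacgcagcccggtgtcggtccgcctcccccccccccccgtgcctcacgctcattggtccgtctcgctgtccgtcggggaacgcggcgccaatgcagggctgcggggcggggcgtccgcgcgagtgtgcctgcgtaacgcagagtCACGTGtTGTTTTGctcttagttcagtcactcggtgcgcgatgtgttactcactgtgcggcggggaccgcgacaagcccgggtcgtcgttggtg
Inpp4b, chr8:81342312-81342611, plus strand: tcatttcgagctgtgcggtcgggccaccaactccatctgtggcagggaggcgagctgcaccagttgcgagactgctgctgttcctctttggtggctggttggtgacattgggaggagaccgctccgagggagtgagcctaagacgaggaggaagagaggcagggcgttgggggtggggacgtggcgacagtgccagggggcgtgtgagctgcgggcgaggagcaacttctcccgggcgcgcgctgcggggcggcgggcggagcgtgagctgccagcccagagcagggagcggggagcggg
Inpp5d, chr1:87620062-87620361, plus strand: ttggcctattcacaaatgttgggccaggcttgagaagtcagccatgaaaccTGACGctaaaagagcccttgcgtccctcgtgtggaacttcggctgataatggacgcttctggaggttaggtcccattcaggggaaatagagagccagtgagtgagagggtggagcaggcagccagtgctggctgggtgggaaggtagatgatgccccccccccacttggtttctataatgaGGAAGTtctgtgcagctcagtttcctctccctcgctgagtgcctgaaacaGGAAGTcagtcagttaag
The Irs2 window held the E-box, its first base 44 bases before the start, and the insulin response core, 37 bases before the start, with a single base between them. In mouse liver this pair is known as the place where FOXO1, SREBP and TFE3 act on Irs2. Of 32851 RefSeq windows of the same length, 7.15% held the E-box and 6.28% the insulin response core. Of the 8 genes with a window (Insr had no entry), Irs2 was the only one to hold either. Inpp5d held the ETS core at 2 places, 18 bases before and 32 bases after the start, as 23.8% of all windows held it at least at 1. Shorter letters within it, such as GGAA, were not searched for in any window. The CREB half-site, present in 20.8% of all windows, was found in Pik3r1, Inpp5d and Foxo3. In Pik3r1 it lay only in a window whose start is 75587 bases from the GENCODE M21 start. The Pik3r1 window at the GENCODE M21 start did not hold it. The FOXO core (3.65% of all windows), the full CREB site (1.79%) and the longer ETS form (3.89%) were found in 0 of the 8. None of the listed letters was in the Inpp4b window. The RefSeq start of Irs2 lies 471 bases from the start in GENCODE M21, so other starts would give other windows.

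Irs2 RNA was about 5.5 times as abundant in Fli1 KO as in NTC NK cells, and this was by far the largest difference among the 9 genes. Irs2 (ENSMUSG00000038894, GRCm38 chromosome 8, 10984681 to 11008458, minus strand) encodes insulin receptor substrate 2, the docking protein that passes the signal of insulin, IGF1 and some cytokine receptors to PI3 kinase. It received 1782, 1372 and 1584 counts in Fli1 KO 1 to 3, against 258 and 321 counts in NTC 1 and NTC 2. On the scaled level this was 360, 245 and 319 CPM in Fli1 KO, against 44.7 and 67.1 CPM in NTC. The groups lay far apart: the lowest Fli1 KO library was still 3.65 times the highest NTC library. Within each group the libraries spread by a similar factor, the highest being 1.47 times the lowest in Fli1 KO and 1.499 times in NTC, with Fli1 KO 2 low and NTC 2 high. The means were 308 ± 58.3 CPM in Fli1 KO (SD, n = 3) and 55.9 ± 15.8 CPM in NTC (SD, n = 2). The log2 fold change was 2.47 (SE 0.19), or 5.52-fold with a 95% interval of 4.16 to 7.33. The mean over all libraries was 20.8 times the background of 9.93 CPM for a gene of this exon length. Irs2 stayed called in all 16 alternative fits, with log2 fold changes of 2.22 to 2.79.

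A transcript on the opposite strand, 9530052E02Rik, shares 162 exon bases with Irs2. It received 11 to 22 counts in the Fli1 KO libraries and 20 and 23 in NTC, with a log2 fold change of −0.28 (SE 0.33), far fewer counts than Irs2 in every library. The paralogue Irs1, the adaptor that shares its role in most tissues, stood at 11.5, 12.5 and 11.7 CPM in Fli1 KO and 11.8 and 9.82 CPM in NTC, a mean of 0.798 times background. Per kb of exon, Irs2 averaged 48.7 CPM in Fli1 KO and 8.84 CPM in NTC, where Irs1 averaged 1.30 CPM in Fli1 KO and 1.182 CPM in NTC. Irs3 and Irs4 were also at or under background, at 0.615 and 0.838 times. Irs2 was thus the only IRS gene with counts over background in these cells.

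**Figure D1:**
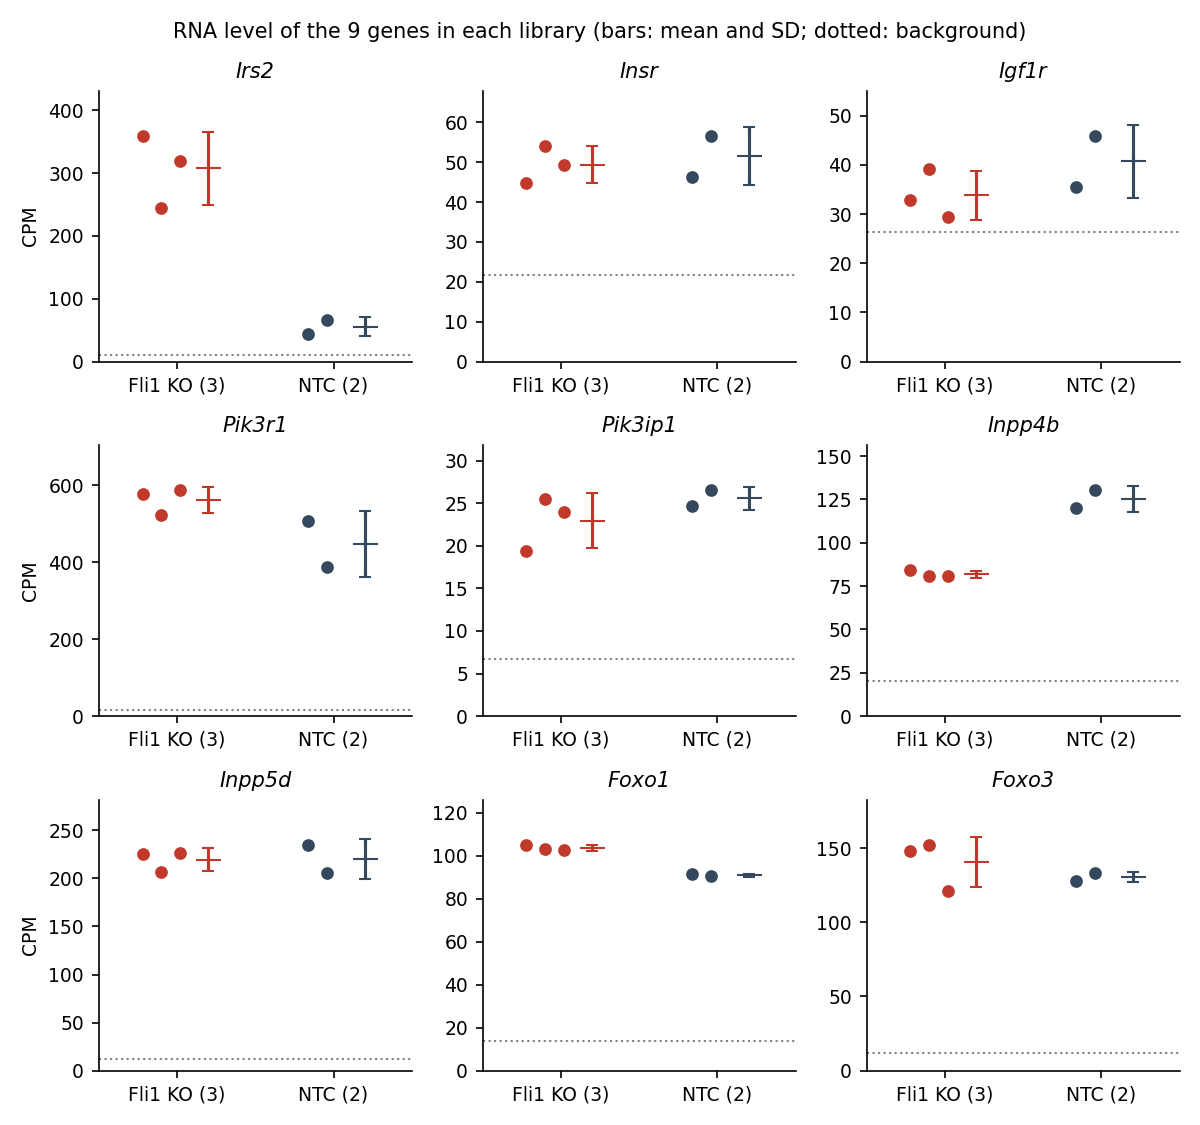
CPM of each of the 9 genes in the 3 Fli1 KO libraries (red) and the 2 NTC libraries (dark), with the mean and SD of each group beside the points and the background for the gene's exon length as a dotted line. Irs2 stands at 245 to 360 CPM in Fli1 KO and at 44.7 and 67.1 CPM in NTC, Inpp4b is lower in all Fli1 KO libraries, and Insr and Igf1r lie near the dotted line.

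The receptor genes were low and did not separate the groups. Insr (ENSMUSG00000005534, chromosome 8, 3122061 to 3279617), which encodes the insulin receptor, stood at 44.8, 54.0 and 49.2 CPM in Fli1 KO, against 46.3 and 56.6 CPM in NTC. The groups overlapped, and the log2 fold change was −0.06 (SE 0.15), with a 95% interval of −0.36 to 0.25. Igf1r (ENSMUSG00000005533, chromosome 7, 67952827 to 68233668), the receptor of insulin-like growth factor 1, stood at 32.9, 39.2 and 29.4 CPM in Fli1 KO, against 35.5 and 46.0 CPM in NTC. Its groups also overlapped, and its log2 fold change was −0.26 (SE 0.16, 95% interval −0.60 to 0.08). Insr averaged 2.32 times and Igf1r 1.39 times the background expected from their long exons (13746 and 16791 bases), so a change of the receptors may not be detectable in these libraries.

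Pik3r1, which encodes the regulatory subunits p85-alpha, p55-alpha and p50-alpha that bind phosphorylated IRS proteins and hold the catalytic subunit, was the most abundant of the 9 genes per length in both groups. Pik3r1 (ENSMUSG00000041417, chromosome 13, 101680563 to 101768217) stood at 576, 523 and 587 CPM in Fli1 KO, against 507 and 387 CPM in NTC. The Fli1 KO libraries lay above both NTC libraries, but only by 1.03 times at the nearest pair, while the NTC libraries differed from each other by 1.31 times. The log2 fold change was 0.33 (SE 0.15, 95% interval 0.02 to 0.64) and was not called (edgeR adjusted p = 0.508). It was 0.56 without NTC 1 and 0.16 without NTC 2, not called in either case. Pik3ip1 (ENSMUSG00000034614, chromosome 11, 3330401 to 3342971), a membrane protein that binds and restrains the catalytic subunit, stood at 19.4, 25.5 and 24.0 CPM in Fli1 KO, against 24.6 and 26.5 CPM in NTC. The groups overlapped, the log2 fold change was −0.15 (SE 0.17), and the level was 3.58 times background.

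Of the lipid phosphatases, Inpp4b was lower in Fli1 KO and Inpp5d was nearly level. Inpp4b (ENSMUSG00000037940, chromosome 8, 81342556 to 82127914) removes the 4-phosphate from PI(3,4)P2, a lipid that helps to activate AKT. It received 418, 453 and 401 counts in Fli1 KO, against 691 and 624 in NTC, or 84.3, 80.8 and 80.8 CPM against 120 and 130 CPM. The libraries of each group lay close together, with an SD of 2.49% of the mean in Fli1 KO and 5.97% in NTC, and the highest Fli1 KO library was at 0.704 of the lowest NTC library. The log2 fold change was −0.61 (SE 0.13), or 0.656 of the NTC level with a 95% interval of 0.545 to 0.789. The gene was called lower, but not without Fli1 KO 1 (log2 fold change −0.62), Fli1 KO 2 (−0.58), Fli1 KO 3 (−0.58) or NTC 2 (−0.54), so the size of the difference held and its call did not. Its level averaged 4.83 times background. Inpp5d (ENSMUSG00000026288, chromosome 1, 87620312 to 87720507) encodes SHIP1, which removes the 5-phosphate from the lipid that PI3 kinase makes and is recruited by inhibitory NK receptors. It stood at 226, 206 and 227 CPM in Fli1 KO, against 235 and 206 CPM in NTC, with overlapping groups and a log2 fold change of −0.01 (SE 0.13, 95% interval −0.28 to 0.27).

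**Figure D2:**
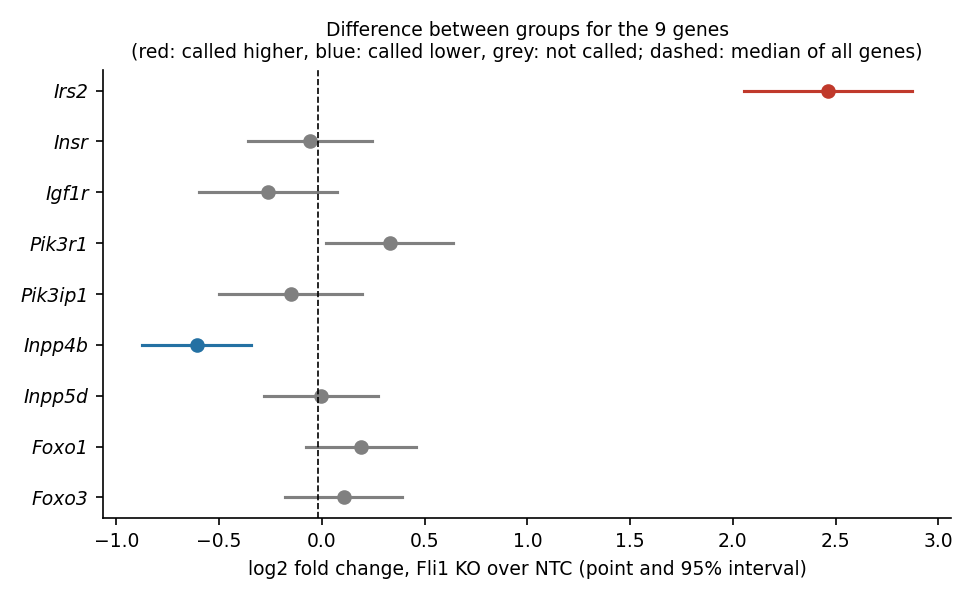
Log2 fold change of Fli1 KO over NTC (x axis) for each of the 9 genes, with its 95% interval; red is called higher, blue called lower and grey not called, and the dashed line is the median of all tested genes at −0.02. Irs2 at 2.47 and Inpp4b at −0.61 lie clear of the line, and the other 7 points lie between −0.26 and 0.33. The interval of Pik3r1, 0.02 to 0.64, also lies above the line, though the gene was not called.

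The FOXO genes differed little. Foxo1 (ENSMUSG00000044167, chromosome 3, 52268336 to 52353221), the main FOXO factor of lymphocyte homing genes, stood at 105, 103 and 103 CPM in Fli1 KO, against 91.4 and 90.5 CPM in NTC. All Fli1 KO libraries lay above both NTC libraries with little spread in either group, the SD being 1.23% and 0.711% of the mean, but the distance was small: the log2 fold change was 0.19 (SE 0.13) and was not called. With library size alone as the scaling it was 0.06. The antisense gene Gm20402 shares 674 of its 687 exon bases with Foxo1 and received 13 to 22 counts in Fli1 KO and 20 and 22 in NTC. The strand setting of the counting is not given, so these counts cannot show how much antisense RNA there was. Foxo3 (ENSMUSG00000048756, chromosome 10, 42181841 to 42276755), a FOXO factor linked to cell death and stress resistance, stood at 148, 152 and 121 CPM in Fli1 KO, against 128 and 133 CPM in NTC. Its groups overlapped, and its log2 fold change was 0.11 (SE 0.14, 95% interval −0.18 to 0.39). RNA levels do not show where FOXO proteins are in the cell, which is what AKT controls.

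Of the 9 genes, 1 was called higher and 1 lower in Fli1 KO (edgeR adjusted p under 0.05), where 0.458% of all 30580 tested genes were called higher and 0.0883% lower (0.546% in either direction). DESeq2 and limma-voom also called 1 higher and 1 lower, against 0.504% and 0.0818% of all genes by DESeq2 and 0.474% and 0.0948% by limma-voom. In the same fit the groups did not overlap for 4 of the 9 genes (Irs2, Pik3r1, Foxo1 and Inpp4b), as for 25.6% of all tested genes (11.9% higher and 13.7% lower). Among the 7603 genes above 3 times background, which include 7 of the 9, 1.71% were called higher and 0.289% lower, and 34.1% had groups that did not overlap. Since the list was chosen on this contrast, nothing is read from either count. The median log2 fold change of the 9 genes was −0.01, against −0.02 over all tested genes. In bulk RNA, a change per cell and a change in the share of cells that use a gene cannot be told apart.

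Per length of exon, the order of the genes was the same in both groups once Irs2 was set aside. In Fli1 KO it ran Pik3r1 (55.8 ± 3.35 CPM per kb), Irs2 (48.7 ± 9.21), Inpp5d (28.9 ± 1.53), Foxo3 (18.6 ± 2.22), Foxo1 (11.96 ± 0.147), Inpp4b (6.27 ± 0.156), Pik3ip1 (5.37 ± 0.748), Insr (3.59 ± 0.337) and Igf1r (2.02 ± 0.297) (SD, n = 3). In these libraries Pik3r1 and Irs2 overlapped, and every other pair of neighbours in the order did not. In NTC it ran Pik3r1 (44.3 ± 8.44 CPM per kb), Inpp5d (29.0 ± 2.73), Foxo3 (17.2 ± 0.462), Foxo1 (10.5 ± 0.0746), Inpp4b (9.57 ± 0.571), Irs2 (8.84 ± 2.50), Pik3ip1 (5.99 ± 0.316), Insr (3.74 ± 0.531) and Igf1r (2.43 ± 0.439) (SD, n = 2). There Inpp4b and Irs2 overlapped, and the other neighbours did not. By group mean, Irs2 was therefore at rank 2 of the 9 RNAs per length in Fli1 KO and at rank 6 in NTC. The NTC rank differed between libraries: in NTC 2 Irs2 stood at 10.6 CPM per kb, above Foxo1 at 10.4 and Inpp4b at 9.98. Enrichment kits capture genes unequally, so levels between genes are approximate.

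**Figure D3:**
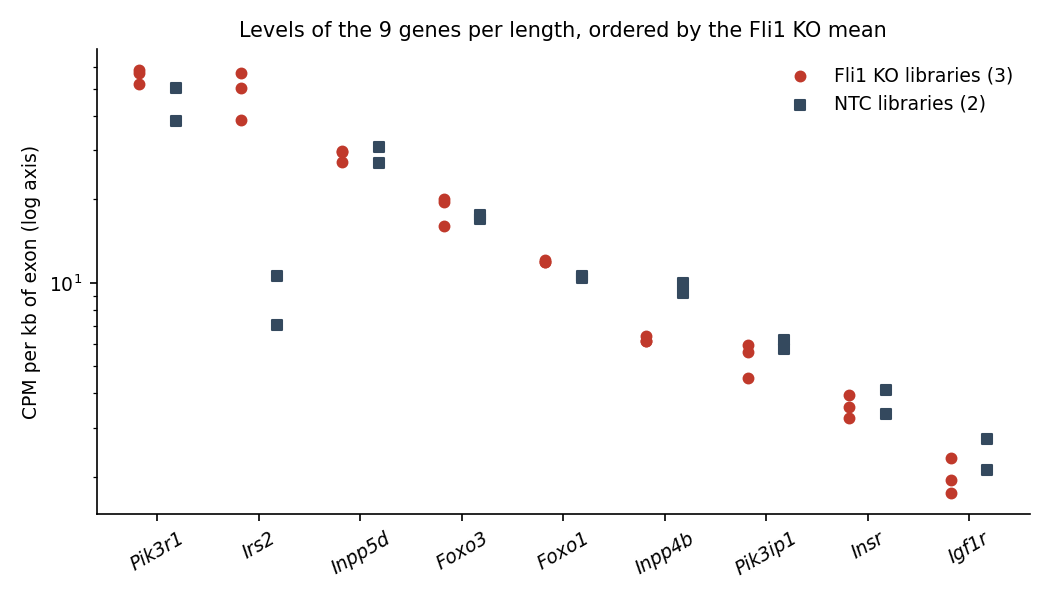
CPM per kb of exon (log axis) of the 9 genes in the 3 Fli1 KO libraries (red circles) and the 2 NTC libraries (dark squares), ordered by the Fli1 KO mean. Irs2 lies beside Pik3r1 in Fli1 KO and near Inpp4b and Foxo1 in NTC, while the other genes keep their places.

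The remaining genes of the pathway were read from lists fixed by role. Over all 30580 tested genes, 1599 were higher and 1136 lower with unadjusted p below 0.05 in edgeR. Of 15 receptor and adaptor genes, edgeR called 0 (1 higher and 1 lower with unadjusted p below 0.05; DESeq2 and limma-voom called 0 each), and their median log2 fold change was 0.01. Without NTC 1 the median of these 15 genes was −0.07. Dok2, an adaptor that dampens kinase signalling, had the smallest p, at 189 ± 13.8 CPM in Fli1 KO (SD, n = 3) and 143 ± 22.4 CPM in NTC (SD, n = 2), which did not pass (log2 fold change 0.39, SE 0.14, edgeR adjusted p = 0.339). Of 13 PI3 kinase subunit and adaptor genes, edgeR called 0 (4 higher and 0 lower with unadjusted p below 0.05; DESeq2 and limma-voom called 0 each), with a median of 0.13. Pik3ap1, the adaptor BCAP of PI3 kinase, had the smallest p, with 335, 276 and 323 CPM in Fli1 KO, against 246 and 132 CPM in NTC (log2 fold change 0.72, SE 0.21, edgeR adjusted p = 0.264). Its NTC libraries stood far apart, and its log2 fold change was 1.26 without NTC 1 (adjusted p = 6.3e-09) and 0.35 without NTC 2 (adjusted p = 0.708). Pik3cd, which encodes the catalytic subunit p110-delta of lymphocytes, averaged 588 ± 65.7 CPM in Fli1 KO (SD, n = 3) and 531 ± 72.6 CPM in NTC (SD, n = 2) and did not pass (edgeR adjusted p = 0.839).

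Of 14 genes of lipid phosphatases and other brakes, edgeR called 0 (0 higher and 0 lower with unadjusted p below 0.05; DESeq2 and limma-voom called 0 each), with a median of 0.07. Inppl1, which encodes SHIP2, had the smallest p, at 37.5 ± 3.50 CPM in Fli1 KO (SD, n = 3) and 29.8 ± 5.47 CPM in NTC (SD, n = 2; edgeR adjusted p = 0.563). Of 15 AKT, SGK and mTORC2 genes, edgeR called 0 (3 higher and 3 lower with unadjusted p below 0.05; DESeq2 and limma-voom called 0 each), with a median of 0.08. Sgk1, a kinase related to AKT that also phosphorylates FOXO factors, came nearest, with 35.5, 35.0 and 34.5 CPM in Fli1 KO, against 25.0 and 23.4 CPM in NTC (log2 fold change 0.53, SE 0.15, edgeR adjusted p = 0.172). Of 18 FOXO relatives and regulators, edgeR called 0 (1 higher and 1 lower with unadjusted p below 0.05; DESeq2 and limma-voom called 0 each), with a median of 0.13. Foxo6 had the smallest p (log2 fold change −1.07, SE 0.28, edgeR adjusted p = 0.109), at 1.16 times background, where a fold has little meaning. Across all genes above 3 times background the median was 0.11, so list medians of this size are near that of well-measured genes at large.

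Of 24 genes known as FOXO targets, edgeR called 1 higher and 1 lower, where it called 0.458% of all genes higher and 0.0883% lower. Their median log2 fold change was −0.06, and 15 were negative, as were 16027 of all 30580 genes. DESeq2 called 2 higher and 2 lower and limma-voom 3 and 2. Without NTC 1 the edgeR median of the 24 genes was −0.03. Klf2, a transcription factor of quiescent lymphocytes, stood at 52.1, 50.3 and 51.4 CPM in Fli1 KO, against 13.5 and 9.19 CPM in NTC (log2 fold change 2.16, SE 0.18, edgeR adjusted p = 3.0e-07). Tnfsf10, which encodes the death ligand TRAIL, stood at 42.0, 39.4 and 42.7 CPM in Fli1 KO, against 67.6 and 72.1 CPM in NTC (log2 fold change −0.76, SE 0.13, edgeR adjusted p = 0.00551). Tnfsf10 was not called without Fli1 KO 1 (−0.76, adjusted p = 0.0905) or Fli1 KO 3 (−0.76, adjusted p = 0.130). Other FOXO1 targets of lymphocytes had negative values that did not pass. S1pr1, the egress receptor, had a log2 fold change of −0.46 (edgeR adjusted p = 0.592) and Il7r, the IL-7 receptor chain, −1.60 (edgeR adjusted p = 0.724), the last with 20.1 CPM in NTC 1 and 117 CPM in NTC 2. These were singled out after their values were seen. Txnip, a brake on glucose uptake and a FOXO target, stood at 598 ± 65.2 CPM in Fli1 KO (SD, n = 3) and 386 ± 79.8 CPM in NTC (SD, n = 2; edgeR adjusted p = 0.0759).

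Genes induced through CREB, the cAMP-responsive factor that also raises Irs2 in mouse liver and pancreatic beta cells, formed a list of 13 that was itself chosen with results of these data known. EdgeR called 6 of them higher and 0 lower, where it called 0.458% of all genes higher and 1.71% of those above 3 times background. Their median log2 fold change was 0.60, and 11 were positive, as were 14553 of all 30580 genes. The count was 2 without Fli1 KO 1 and 3 without Fli1 KO 3, while the medians there were 0.61 and 0.59. Fos, a subunit of AP-1, stood at 16.1, 10.3 and 12.9 CPM in Fli1 KO, against 2.43 and 3.34 CPM in NTC (log2 fold change 2.19, SE 0.29, edgeR adjusted p = 1.6e-04), at 2.44 times background. Dusp1, a phosphatase that turns MAP kinases off, stood at 70.8, 40.7 and 53.4 CPM in Fli1 KO, against 18.7 and 19.8 CPM in NTC (1.51, SE 0.20, edgeR adjusted p = 3.3e-04). Per1, a clock gene, had a log2 fold change of 0.91 (SE 0.15, edgeR adjusted p = 0.00345), and Sik1, a kinase that restrains CREB coactivators, 0.79 (SE 0.14, edgeR adjusted p = 0.00506). Without Fli1 KO 1 neither was called (0.80, adjusted p = 0.0865, and 0.75, adjusted p = 0.0905), nor was Sik1 without Fli1 KO 3 (0.80, adjusted p = 0.104). The other called genes were Crem and Pde4b, at 0.84 and 0.60 (edgeR adjusted p = 0.00772 and 0.0368). Ppargc1a and Pck1, the CREB targets of fasting liver, averaged 1.69 and 0.760 times background. Fos and Dusp1 are also known targets of MAP kinase signalling, so the list is not specific to CREB.

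**Figure D4:**
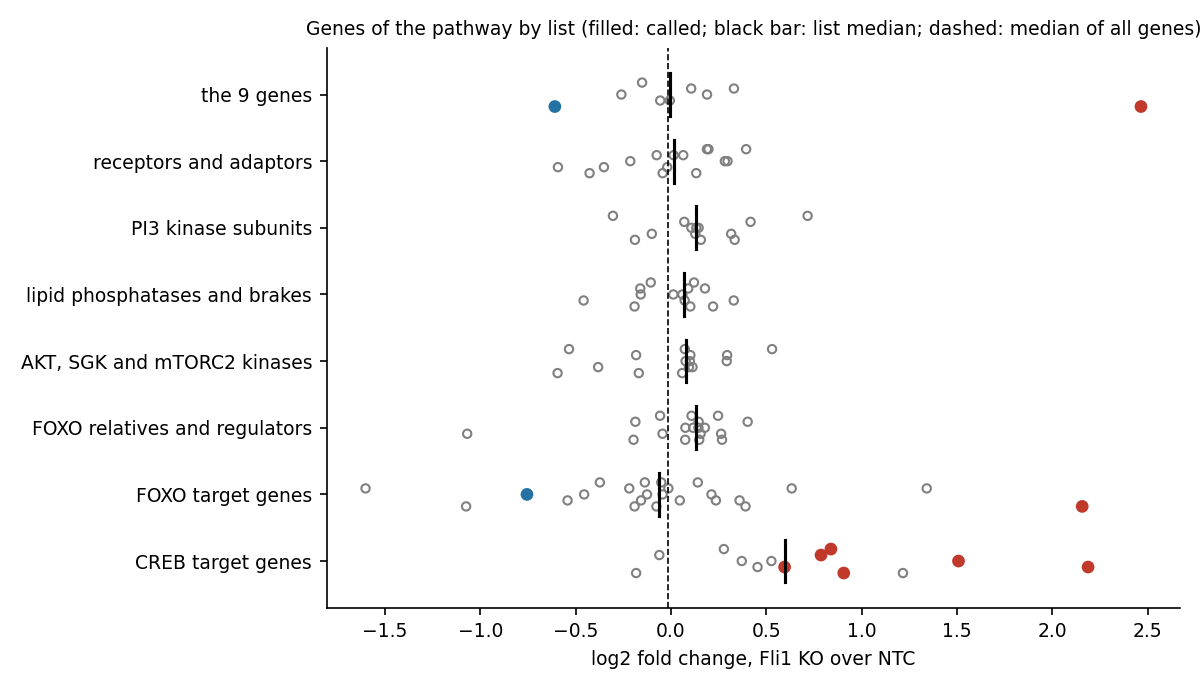
Log2 fold change of Fli1 KO over NTC (x axis) for each tested gene of 8 lists; filled points are called, red higher and blue lower, black bars are list medians, and the dashed line is the median of all tested genes. Lists of receptors, kinase subunits, phosphatases and AKT kinases hold no filled point, FOXO targets hold 1 of each colour, and CREB targets hold 6 red points around a median of 0.60.

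The genes whose pattern over the 5 libraries was most like that of Irs2 were Fos, Csrnp1, Ier2, Cd69, Dusp5 and Ier3. Fos, Ier2 and Ier3 are known as immediate early genes, and Cd69 marks recently activated lymphocytes. Likeness was the root mean square difference of log2 CPM over the 5 libraries, with each gene centred on the mean of its group means, among 14514 genes of at least 5 CPM with a proper symbol. The difference was 0.22 for Fos, 0.23 for Csrnp1, 0.26 for Ier2, 0.34 for Cd69, 0.35 for Dusp5 and 0.37 for Ier3. Csrnp1, a nuclear activator, stood at 113, 66.9 and 97.9 CPM in Fli1 KO, against 19.6 and 22.1 CPM in NTC. Dusp5, which inactivates ERK, stood at 502, 293 and 374 CPM in Fli1 KO, against 103 and 96.9 CPM in NTC. Like Irs2, these genes were lowest among the Fli1 KO libraries in Fli1 KO 2 and highest in Fli1 KO 1. The measure includes the difference between the groups for which Irs2 was chosen, so genes with a difference of like size come near by construction. It also includes the order of the libraries within each group, so the order shared with Irs2 is part of the selection too. Of the 4 nearest genes with a promoter window, 3 held the CREB half-site (Fos, Csrnp1 and Dusp5), as did 20.8% of all windows. Csrnp1 held it in at least 1 of its 4 windows. The ETS core was in 2 (Fos and Dusp5) and in 23.8% of all windows. The E-box or insulin response core of Irs2 was in 0. These shares are per window and not per gene, so a gene with 4 windows has more places for a match.

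**Figure D5:**
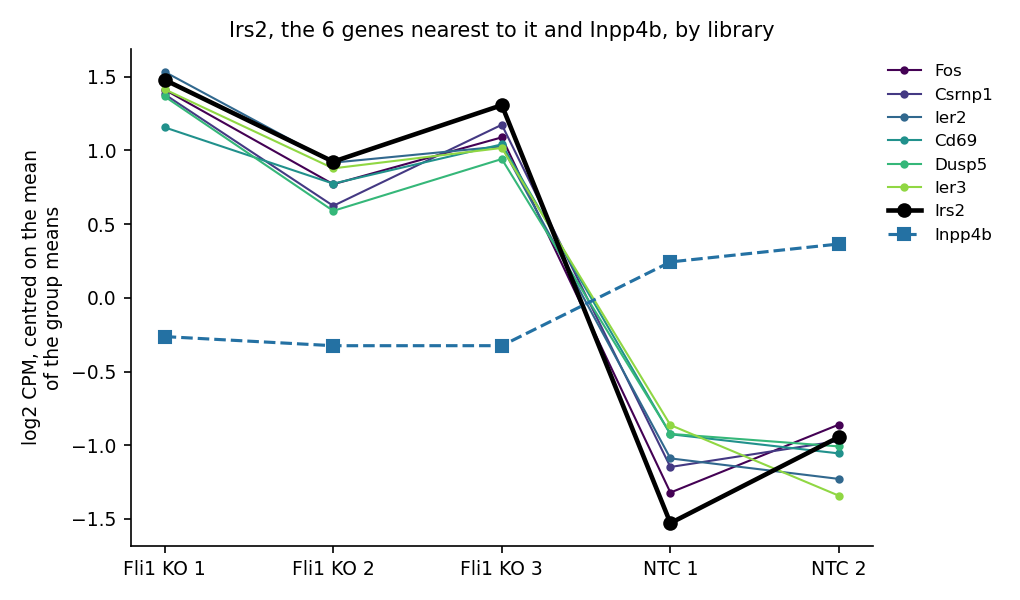
Log2 CPM in each library, centred on the mean of the group means, for Irs2 (thick black), the 6 genes nearest to it and Inpp4b (dashed). The 6 genes and Irs2 share a high level in Fli1 KO 1 and a lower one in Fli1 KO 2. Their levels are low in both NTC libraries. The 6 were picked for likeness over all 5 libraries, so this shared pattern is part of the selection. Inpp4b runs the other way between the groups, with a smaller amplitude.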

How the data were processed

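Per the labels' protocols, total RNA of NK cells was extracted with a small-scale kit and 10 ng entered an enrichment library kit. Per the submitters' processing notes, the authors used FastQC 0.12.0, Trimmomatic 0.39 and STAR 2.7.11 with mm10. The sources used here do not give the counter, strand setting or annotation release. The deposited values are whole-number counts per gene, not normalized, with 0 columns beyond the 5 libraries.

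Symbols were found for 52073 of 56691 IDs (91.9%) in the gene name table, and coordinates, exon lengths and overlaps came from GENCODE M21 (GRCm38, also called mm10). Genes passing edgeR's filterByExpr (minimum count 10) were scaled with TMM factors and compared with the robust quasi-likelihood test of edgeR 4.0.16 in R 4.3.3, Fli1 KO over NTC, with Benjamini-Hochberg adjustment over all 30580 genes. A gene is called at an adjusted p under 0.05. SDs are of CPM, and intervals are for the fitted coefficient. Background is the count per kb on 1453 receptor genes (5422 kb of exon), taken to hold per kb for all genes, which was not tested; 7603 genes lay over 3 times it. Likeness used a prior count of 2.

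The 9 genes and all lists were chosen with earlier results of these data known. Named are the 9 genes and the 6 genes nearest to Irs2. Per list, up to 4 called genes with the smallest adjusted p are named, or else the gene with the smallest p. Others are named for their role or, as with S1pr1, Il7r, Crem and Pde4b, after their values were seen. Alternatives were other scaling factors, filters, tools (DESeq2 1.42.0, limma-voom with limma 3.58.1), lowess corrections (span 0.3) for GC content and exon length, a replicate block, and each library left out.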

Additional observations from a re-analysis of the deposited data

How the results depend on the processing

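Irs2 was called higher in all 16 alternatives and Inpp4b lower in 12, with log2 fold changes of −0.73 to −0.54. The number of the 9 genes called lower was 1, and 0 to 1 when a library was left out. Over all genes 167 were called, against 295 with no filter, 921 with the replicate number as a block, and 49 (without Fli1 KO 1) to 877 (without NTC 1) with a library left out. Of the genes on the pathway lists 8 were called, against 22 with the block and 3 to 15 with a library left out, at the same libraries. With 1 NTC library left, it is assumed to vary as the Fli1 KO libraries do, so such counts are no measure of strength. Same-numbered libraries deviated together over genes above background (r = 0.29 for number 1 and 0.43 for number 2, across genes, which are not independent), but only 2 numbers are shared and the labels do not say that they mark pairs. The block changed no call among the 9 genes; Dok2, Pik3ap1, Sgk1 and Foxo6 were among the genes called with it. Small differences changed sign: Inpp5d, at −0.01, was 0.0131 with DESeq2, 0.0132 with its size factors, 0.00884 with no filter, 0.0286 with the GC correction, and −0.0915 to 0.11 with a library left out. Insr was −0.18 to 0.10 with a library left out (above 0 without Fli1 KO 1 or NTC 2), and Foxo3 −0.0190 with library size alone and −0.0117 among genes over 3 times background. The median over genes shifted by −0.13 when library size was the only scaling. With 3 against 2 libraries the intervals are wide, and Insr and Igf1r lie too near background for a change to be read.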
